A study of Drosophila melanogaster with 12 samples.

Results

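The comparison described here asks what blocked oogenesis changes in females that already lack juvenile hormone (JH). It sets 3 arrays of the genotype labelled CAKO_ovoD against 3 of the genotype labelled CAKO, 6 of the 12 Affymetrix Drosophila 2.0 arrays of the study, over every gene that has a probe set of its own (11981 genes, of which 9967 passed the filter on low values and were tested). CAKO females carried Aug21-Gal4 with UAS-GFP and expressed UAS-NIPP1, an inhibitor of protein phosphatase type 1, under this driver in the corpora allata, the glands that make JH. Some adults with the knockout kept a faint GFP signal at the gland, and CAKO females still lay some eggs. CAKO_ovoD females carried the same transgenes and the dominant female-sterile allele ovoD1, which stops oocytes at an early stage and came from a stock that also carries a v allele. The other arrays hold the genotypes labelled Wildtype and ovoD mutant, with intact corpora allata, and gave the same contrast in females that make JH. All females were kept at the warmer rearing temperature for the first days of adult life and then aged in cages of 125, with 4 cages per genotype. They were taken at 14 days by the methods and 15 days by the labels, and each array took RNA of 25 pooled whole females (n = 3 per genotype). The sources differ on the genetic background of CAKO and Wildtype: one places both in the wDAH background and the ovoD1 genotypes in a mixed w1118 and wDAH background, and another gives Wildtype the mixed background too. Sterility and background therefore cannot be told apart in the values below.

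In a Drosophila ovary, germ line stem cells divide to make cysts in which 1 cell becomes the oocyte and its sisters become nurse cells that copy their DNA many times over and fill the oocyte with maternal RNA. The fat body secretes yolk proteins, which the oocyte takes up, and the follicle cells around it then lay down the vitelline membrane and the chorion. JH is needed for the oocyte to pass the step at which yolk uptake begins. Without it chambers stop before yolk is deposited, whereas ovoD1 germ cells fail before that step.

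The deposited values are log2 GC-RMA values, with a floor of 2.13 that marks signal no brighter than the background and a highest value of 16.41. On each array 46.6% to 47.5% of probe sets were within 0.2 of this floor. The medians of whole arrays were 2.86 to 2.92, and replicate arrays differed by a median of 0.04 to 0.08. A linear model over the 4 genotypes (limma) gave each log2 fold change with its standard error (SE), and a gene was called where the Benjamini-Hochberg adjusted p was under 0.05 and the change at least 1.5-fold. Of the 9967 genes, 2559 were called higher (25.7%) and 2649 lower (26.6%) in CAKO_ovoD than in CAKO, 52.3% in all, and in 74.1% of genes the 3 arrays of one genotype did not overlap the 3 of the other. The falls were the larger ones, with 803 genes at least 4-fold lower and 193 at least 4-fold higher, and 68 against 1 at 64-fold. Because the authors gave every array the same distribution of values, a change is relative to the rest of the RNA on the array. Over the probe sets kept, medians were 7.36 to 7.37 on the CAKO arrays and 6.98 to 7.02 on the CAKO_ovoD arrays. Centring each array on that median moved all changes by 0.36 and gave 3498 higher (35.1%) and 1943 lower (19.5%). Centring on 35 muscle and photoreceptor genes, as a stand-in for somatic tissue, moved them by -1.14 and gave 401 higher (4.02%) and 7535 lower (75.6%). Under all 3 scalings 400 genes were higher (4.01%) and 1942 lower (19.5%), and a rise or fall below is relative to the deposited scale unless the other scalings are named. These are whole females, so fewer cells of a type and less RNA per cell cannot be told apart.

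**Figure D1:**
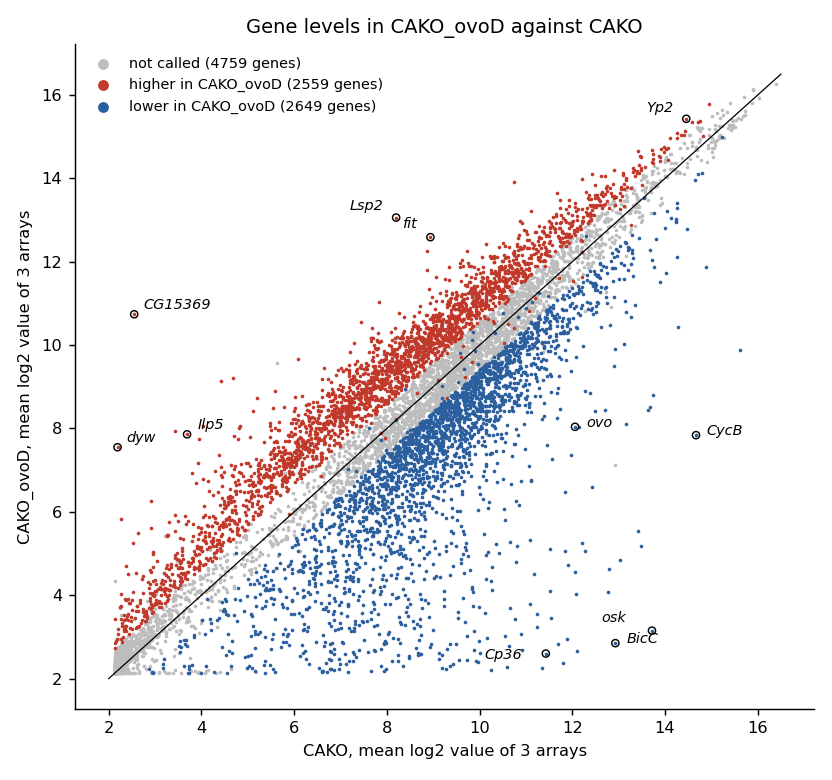
Each point is 1 tested gene, with its mean log2 GC-RMA value over the 3 CAKO arrays on the horizontal axis and over the 3 CAKO_ovoD arrays on the vertical axis, and the line marks equal values. Genes called higher on the deposited scale (2559, 401 after centring on muscle and photoreceptor genes) lie in a band close above the line, and the 2649 called lower (7535 after that centring) spread far below it, down to the floor at 2.13.

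The germ line gene ovo, the gene that ovoD1 mutates, checks the sterile genotype. Its log2 values were 12.02, 12.07 and 12.09 in CAKO and 8.07, 8.07 and 7.97 in CAKO_ovoD. The groups lay far apart, 16.2-fold (log2 fold change -4.02, SE 0.06, adjusted p = 1.01e-10). The gene jhamt, whose methyltransferase finishes JH in the gland, was 3.26, 2.79 and 3.34 in CAKO, 3.75, 4.59 and 4.56 in CAKO_ovoD, 4.61 to 4.71 in Wildtype and 6.56 to 6.72 in the ovoD mutant. Each genotype without corpora allata lay below its counterpart with them, although a pair of CAKO_ovoD arrays came close to the lowest Wildtype array. The gene was higher in CAKO_ovoD than in CAKO (log2 fold change 1.17, SE 0.22, adjusted p = 0.00115), a call that was not made after centring on muscle and photoreceptor genes (0.03, adjusted p = 0.895). The third gene of the list of stock markers, y, stood near the floor, at 2.14 on every array.

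Maternal RNAs that nurse cells make and the oocyte stores held several of the largest single falls. Of 24 genes for localized and maternal RNAs tested, 19 fell and none rose, with a median log2 fold change of -5.25 against 0.00 over all genes. For osk, the determinant of the posterior pole and of the pole plasm, the CAKO arrays read 13.74, 13.67 and 13.74 and the CAKO_ovoD arrays 3.32, 3.23 and 2.90. This 1520-fold difference was the largest fall on the arrays (-10.57, SE 0.35, adjusted p = 1.32e-08). BicC, an RNA-binding protein of the female germ line, stood at 12.82, 12.96 and 13.02 and at 2.57, 3.43 and 2.55 (-10.08, SE 0.20). The anterior determinant bcd stood at 10.52, 10.56 and 10.68 and at 2.38, 2.21 and 2.21 (-8.32, SE 0.08), at or just above the floor in sterile females. The RNA of gnu, which keeps DNA replication in check in the early embryo, fell by 9.45 and that of BigH1, the linker histone of the early embryo, fell by 9.08. Both were above 11 on each CAKO array and under 3 on each CAKO_ovoD array. The 12 largest falls also took in rpk, an ion channel subunit of the DEG/ENaC family (-8.22), and CG11674 (-9.44).

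**Figure D2:**
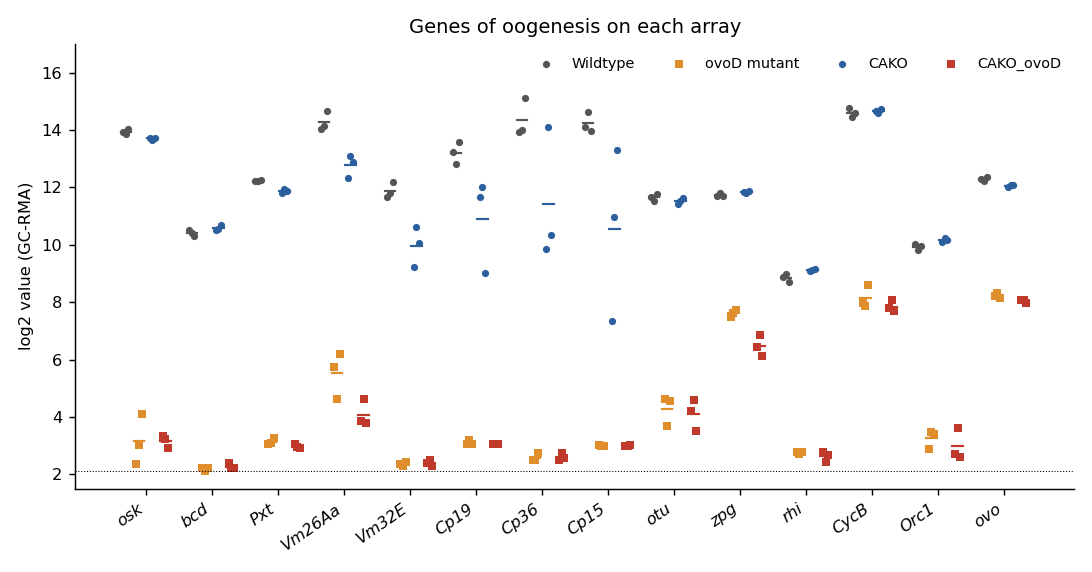
Log2 GC-RMA values (vertical axis) of 14 genes of oogenesis on each of the 12 arrays, with 1 point per array, a bar at the mean of 3 and a dotted line at the floor of 2.13. Sterile females of both kinds sit below all other arrays for every gene drawn, and the CAKO points of the chorion genes spread over several log2 units while those of osk and ovo lie together.

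All 7 chorion genes fell, by a median of -7.54, and all were already uneven between CAKO arrays, with an SD of up to 3.01 (Cp15). Cp15, a late chorion protein, stood at 7.33, 10.98 and 13.31 in CAKO and at 3.0, 2.99 and 3.03 in CAKO_ovoD (-7.54, SE 1.18, adjusted p = 3.09e-04). Cp36, an early chorion protein, stood at 9.85, 14.10 and 10.35 and at 2.49, 2.74 and 2.57 (-8.83, SE 0.94, adjusted p = 2.13e-05), and Cp19 at 11.65, 12.02 and 9.01 and at 3.06 to 3.07 (-7.83, SE 0.66). The order of the CAKO arrays differed from gene to gene: the first array was the lowest for Cp15 and Cp36, and the third for Cp19 and Cp38. The list medians ran from 9.01 to 10.98 on the CAKO arrays, against 12.80 to 13.60 in Wildtype, and from 2.74 to 2.77 in CAKO_ovoD. The lowest CAKO array still lay above every CAKO_ovoD array in each of the 7 genes, where 74.1% of all genes showed no overlap of the groups in either direction.

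Vitelline membrane and other eggshell genes are switched on earlier in follicle cells, and 10 of 15 fell while tsl rose (median -3.44). Vm26Aa stood at 12.33, 13.10 and 12.89 in CAKO and at 3.85, 4.61 and 3.78 in CAKO_ovoD (-8.69, SE 0.41, adjusted p = 1.06e-07), and Vm34Ca at 12.93 to 13.87 and at 5.05 to 5.82 (-7.86, SE 0.33). Vm32E fell by 7.58. The CAKO arrays were closer together for these genes than for the chorion genes. Pxt, a peroxidase needed in follicle cells for eggshell formation, was as even as the maternal RNAs, at 11.81, 11.94 and 11.88 against 3.06, 2.94 and 2.90 (-8.91, SE 0.06, adjusted p = 5.47e-12). The exception, tsl, encodes the cue for the terminal system of the embryo and rose from between 9.32 and 9.44 to between 10.48 and 10.51 (1.12, SE 0.09), but not after centring on muscle and photoreceptor genes (-0.02).

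The yolk receptor and the yolk proteins parted. The receptor gene yl, which the oocyte expresses, stood at 11.06, 11.15 and 11.07 in CAKO and at 3.82, 3.97 and 3.60 in CAKO_ovoD (-7.29, SE 0.10, adjusted p = 1.08e-10). Yp2, a yolk protein made in fat body and follicle cells, stood at 14.36, 14.65 and 14.37 in CAKO and was higher in all 3 sterile arrays, at 15.49, 15.55 and 15.24 (0.96, SE 0.12, adjusted p = 6.54e-05). Yp3 moved from 14.83 to 15.16 up to 15.71 to 15.84 (0.85, SE 0.08). Both rises turned into small falls that were not called after centring on muscle and photoreceptor genes (-0.18 and -0.29), whereas the fall of yl did not depend on the scaling. The medians of the list of 4 on CAKO_ovoD arrays were 15.48 to 15.70, close to the upper end of the measured range.

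Genes of germ line stem cells and early cysts, the first steps of oogenesis, were mixed. Of 15 tested, 8 fell (53.3%, with 26.6% over all genes) and 2 rose (13.3%, with 25.7%) on the deposited scale. After centring on muscle and photoreceptor genes 14 fell (93.3%, with 75.6% over all genes). The cyst gene bam, which turns a stem cell daughter to differentiation, stood at 8.54, 8.70 and 8.92 in CAKO and at 2.46, 2.64 and 2.64 in CAKO_ovoD (-6.14, SE 0.11, adjusted p = 3.39e-10). otu, needed for cyst growth and nurse cells, fell by 7.43 and brat, a translational repressor, by 5.76. The germ line gap junction gene zpg kept a clear signal in sterile females, at 6.43, 6.86 and 6.14 against 11.83, 11.81 and 11.89 (-5.36, SE 0.15), so its probe set did not reach the floor. Rbfox1, an RNA-binding protein of cyst differentiation that the nervous system and muscle also use, was higher by 0.74 on the deposited scale and changed sign after centring on muscle and photoreceptor genes (-0.40). The other call of a rise came through a probe set of Sxl, the master gene of female development, that is not the brightest of that gene.

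Of 29 genes of the piRNA pathway, which silences transposons in the germ line and in follicle cells, 24 fell and none rose (median -3.0). rhi, which marks the clusters from which piRNA precursors are transcribed, stood at 9.08, 9.13 and 9.15 in CAKO and at 2.77, 2.44 and 2.66 in CAKO_ovoD (-6.50, SE 0.10, adjusted p = 1.48e-10). The tudor domain genes tej, krimp and vret fell by 5.43, 4.89 and 5.10. Of 20 meiosis genes 13 fell and none rose (median -2.15). mtrm, which restrains Polo kinase in the oocyte, stood at 13.48, 13.44 and 13.54 and at 5.88, 6.01 and 3.70 (-8.29, SE 0.55), with the third CAKO_ovoD array below the other two. Genes of the synaptonemal complex, c(3)G and c(2)M, fell by 5.27 and 5.70, and nod, a kinesin-like protein that holds chromosomes on the meiotic spindle, fell by 5.65.

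Cell division genes fell together. All 19 mitotic genes (median -4.31) and 25 of 28 DNA replication genes (median -3.69) were lower in CAKO_ovoD, and none was higher, whereas 26.6% of all genes were lower. CycB, a mitotic cyclin that the oocyte also stores, was one of the brightest, at 14.68, 14.61 and 14.73 in CAKO and 7.78, 8.07 and 7.68 in CAKO_ovoD (-6.83, SE 0.19, adjusted p = 4.24e-09). CycB3 fell by 8.85, the securin pim by 7.51 and borr, a subunit of the chromosomal passenger complex, by 6.43. The gene of the largest origin recognition subunit, Orc1, stood at 10.09, 10.22 and 10.16 and at 2.71, 3.62 and 2.61 (-7.17, SE 0.26, adjusted p = 2.01e-08). The licensing factors Cdc6 and dup fell by 6.54 and 5.98 and the replication factor Mcm10 by 5.78. Both histone genes with a probe set of their own fell, and of these the variant His2Av, which somatic nuclei use as well, was still at 10.89 to 11.13 in sterile females (-2.38, SE 0.08).

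Genes of protein synthesis and turnover moved less than these on the deposited scale, where 25.7% of all genes were higher and 26.6% lower. Of 37 cytosolic ribosomal protein genes 4 fell and none rose (median -0.17), among them RpL7-like (-1.13), and 3 fell after median centring. The lowest change in this list was -3.0. Of 69 mitochondrial ribosomal protein genes 31 fell (median -0.52), with mRpS18A (-1.34) and mRpL12 (-1.19) among them, but only 5 fell and 1 rose after median centring. Of 31 proteasome genes 7 fell (22.6%, with 26.6% over all genes), led by the lid subunits Rpn11 (-0.79) and Rpn5 (-0.73). None did after median centring (-0.43 and -0.37 for this pair), where 19.5% of all genes fell. In the respiratory chain 6 of 64 genes rose (9.38%, median 0.17), which became 25 higher after median centring (39.1%, with 35.1% over all genes). After centring on muscle and photoreceptor genes 58 were lower (90.6%, with 75.6% over all genes). Of 25 vacuolar ATPase genes 5 rose (20%, with 25.7% over all genes), led by Vha100-4 (1.83), and 20 fell after the latter centring (80%, with 75.6%). After that centring all 37 cytosolic and all 69 mitochondrial ribosomal protein genes and all 31 proteasome genes were lower as well, so the count, and for some the direction, followed the scaling in all 5 lists.

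**Figure D3:**
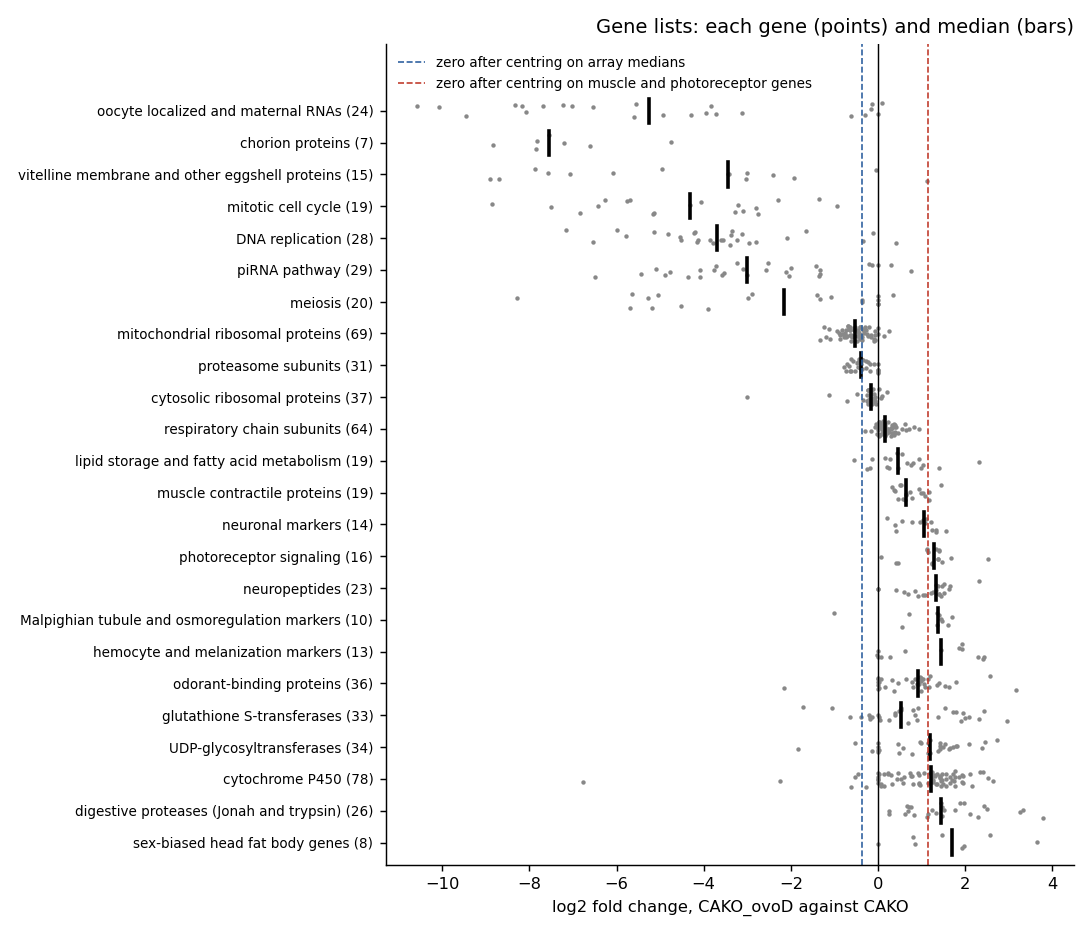
Log2 fold change of CAKO_ovoD against CAKO (horizontal axis) for each tested gene (points) of 24 lists, with a bar at each median and the number of genes in brackets. Dashed lines show where zero lies after the other scalings: the lists of oogenesis and cell division stay far left of all 3 lines, and the median of the neuronal list lies between the zero of the deposited scale and that of the muscle and photoreceptor scale. The muscle and photoreceptor lists set the latter line themselves.

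Some large falls lay in genes not named for oogenesis. Ilp8, a relaxin-like peptide that follicle cells of mature chambers express, stood at 9.50, 9.66 and 9.78 in CAKO and at 4.08, 3.99 and 3.74 in CAKO_ovoD (-5.71, SE 0.25, adjusted p = 6.41e-08). Among 16 heat shock and chaperone genes, 6 fell (37.5%, with 26.6% over all genes) and 3 rose (18.8%, with 25.7%). After centring on muscle and photoreceptor genes 0 rose and 13 fell (81.2%, with 75.6% over all genes). The small heat shock genes Hsp26 and Hsp27, which nurse cells express in development without any heat shock, fell from between 13.13 and 13.22 to between 7.87 and 8.22 (-5.07, SE 0.15) and from between 13.65 and 13.73 to between 8.22 and 8.90 (-5.17, SE 0.17). The co-chaperone Stip1 and the heat shock factor Hsf fell by 1.5 and 1.33. The receptor gene Tl, which sets the dorsal-ventral axis of the embryo from maternal RNA and serves immunity in the adult, fell from between 11.90 and 12.06 to between 9.32 and 9.45 (-2.59, SE 0.06). The methionine cycle split on the deposited scale, with 3 of 8 genes lower and 3 higher (37.5% each, with 26.6% and 25.7% over all genes). After centring on muscle and photoreceptor genes 5 were lower (62.5%, with 75.6% over all genes) and 1 higher (12.5%, with 4.02%). Ahcy (-1.54), Cbs (-1.20) and Sam-S (-0.91, and not called at -0.55 after median centring) were lower. Gnmt, which takes up surplus S-adenosylmethionine and is abundant in fat body, stood at 6.30, 7.36 and 7.29 in CAKO and at 9.77, 9.08 and 8.30 in CAKO_ovoD (2.07, SE 0.41, adjusted p = 0.00159).

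Far fewer genes rose by a large factor, and 8 rose by 16-fold or more. The largest rise was CG15369, at 2.73, 2.52 and 2.41 in CAKO and at 10.53, 11.36 and 10.32 in CAKO_ovoD (8.18, SE 0.70, adjusted p = 4.71e-06), 290-fold. dyw, a relative of the JH-binding protein family that lies beside period, was within 0.2 of the floor in all CAKO arrays and at 7.29, 7.75 and 7.62 in CAKO_ovoD, at least 41-fold higher (adjusted p = 8.17e-08). CG11313, a serine protease by sequence, was at 2.26 in all 3 CAKO arrays and at 7.51, 4.74 and 5.21 in sterile ones, at least 11.8-fold higher (adjusted p = 3.99e-04). All 3 were thus off or dim in CAKO females.

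The other large rises started from higher levels. The lysosomal mannosidase gene LManIII went from 4.07, 5.10 and 4.91 to 9.43, 9.10 and 9.13 (4.53, SE 0.51), CG43085 from between 3.16 and 3.62 to between 6.94 and 8.64 (4.52, SE 0.42), and CG10559, which resembles ecdysteroid kinases, from between 5.83 and 6.22 to between 9.64 and 9.67 (3.57, SE 0.16). CG17192, a lipase by sequence, stood at 4.25, 4.39 and 4.61 in CAKO and at 9.72, 9.53 and 8.18 in CAKO_ovoD (4.73, SE 0.46, adjusted p = 1.18e-05). For CG17192, CG43085 and the serine protease gene CG18179 (4.01, SE 0.48), the third CAKO_ovoD array was the lowest of its group. All 12 of the largest rises were also called after centring on muscle and photoreceptor genes.

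**Figure D4:**
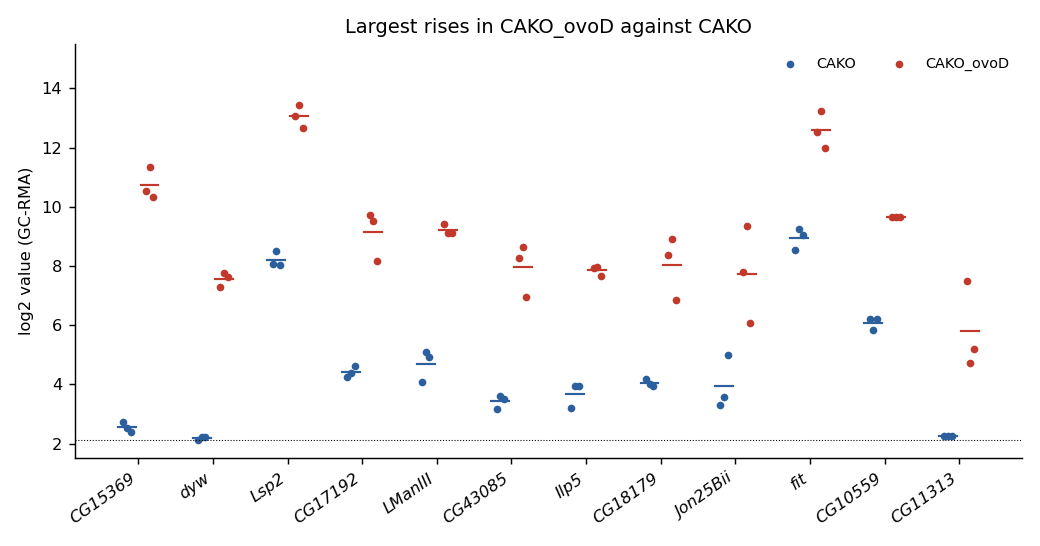
Log2 GC-RMA values (vertical axis) of the 12 genes with the largest called rises on each CAKO and CAKO_ovoD array, with 1 point per array, a bar at the mean of 3 and a dotted line at the floor of 2.13. The groups do not overlap for any of them, as the rule that chose them requires, and the CAKO_ovoD points of Jon25Bii and CG11313 are the most spread.

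Among the insulin-like peptides, 2 that are made by the same brain neurosecretory cells rose. Ilp5 stood at 3.19, 3.94 and 3.95 in CAKO and at 7.94, 7.97 and 7.67 in CAKO_ovoD (4.17, SE 0.21, adjusted p = 1.74e-07), 18-fold, and Ilp2 at 6.46, 6.69 and 6.69 and at 9.0, 9.0 and 8.79 (2.32, SE 0.11, adjusted p = 1.11e-07), 4.99-fold. Of the 10 genes of this list these 2 were higher (20%, with 25.7% over all genes) and Ilp8 lower (10%, with 26.6%). After centring on muscle and photoreceptor genes Ilp2 and Ilp5 were still higher (20%, with 4.02% over all genes) and 8 genes were lower (80%, with 75.6%). Akh, the adipokinetic hormone that mobilizes fat and sugar and is made in the cells next to the corpora allata, went from 7.32, 6.87 and 7.0 to 9.33, 9.49 and 9.34 (2.32, SE 0.11, adjusted p = 1.19e-07). Its receptor gene AkhR, expressed in fat body, was higher by 1.03 and, after centring on muscle and photoreceptor genes, -0.11 for the same probe set.

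Although the corpora allata were ablated in both genotypes, 5 of 11 genes of JH synthesis, breakdown and response were higher on the deposited scale (45.5%, with 25.7% over all genes), and none was lower. After centring on muscle and photoreceptor genes none was higher and 6 were lower (54.5%, with 75.6% over all genes). Kr-h1, a zinc finger gene that JH induces through its receptors, stood at 7.52, 7.72 and 7.69 in CAKO and at 8.97, 9.22 and 9.12 in CAKO_ovoD (1.46, SE 0.23, adjusted p = 2.88e-04), and was not called after that centring (0.32, adjusted p = 0.109). Jhedup, a carboxylesterase related to JH esterase, rose by 1.45 (0.31 after that centring, not called). hll, an acyl-CoA synthetase gene by sequence, counts among the 5 higher genes, and its place in this list was not tested. It overlapped between groups, at 5.46, 5.74 and 6.07 against 7.07, 7.06 and 6.05 (0.97, SE 0.31, adjusted p = 0.0216). Its call was lost without CAKO replicate 1 or 2 or CAKO_ovoD replicate 1 or 2 (0.80 to 0.97), in the fit of these genotypes alone and in the methods' t-test, and its sign turned after centring on muscle and photoreceptor genes (-0.17).

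In the takeout family, small secreted proteins related to JH-binding proteins, 9 of 11 genes rose (81.8%, with 25.7% over all genes) and Jhbp5 fell (median 1.11). After centring on muscle and photoreceptor genes none was higher and 2 were lower (18.2%, with 75.6% over all genes). Jhbp5 stood at 7.43, 8.29 and 8.54 in CAKO and at 4.67, 5.64 and 4.71 in CAKO_ovoD (-3.08, SE 0.37, adjusted p = 5.51e-05). Jhbp12 rose by 1.64 and Jhbp11 by 1.43 (0.50 and 0.29 after that centring, neither called). Ecdysone synthesis and response showed no common direction, with 3 of 20 genes higher and 3 lower (15% each, with 25.7% and 26.6% over all genes). After centring on muscle and photoreceptor genes 18 were lower (90%, with 75.6% over all genes). The nuclear receptor genes ftz-f1 and usp, the latter the partner of the ecdysone receptor, fell by 1.08 and 0.90 (usp was not called at -0.54 after median centring), and vvl, a POU-domain gene, was higher by 1.04 (-0.10 after centring on muscle and photoreceptor genes).

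Fat body transcripts for storage and secreted proteins were higher in 7 of 10 genes (70%, with 25.7% over all genes, median 0.89). After centring on muscle and photoreceptor genes 2 were higher (20%, with 4.02% over all genes) and 3 lower (30%, with 75.6%). Lsp2, a larval serum storage protein, went from 8.06, 8.50 and 8.04 in CAKO to 13.08, 13.43 and 12.66 in CAKO_ovoD (4.86, SE 0.30, adjusted p = 6.26e-07), 29.0-fold. CG8093, a lipase by sequence, rose by 1.99 and Tsf1, an iron-binding transferrin of the blood, by 1.23 (0.09 after that centring, not called). In lipid storage and fatty acid metabolism 8 of 19 genes were higher (42.1%, with 25.7% over all genes, median 0.46). After that centring 1 was higher (5.26%, with 4.02% over all genes) and 12 lower (63.2%, with 75.6%). The lipase gene mag rose by 1.39 and the fatty acid synthase gene FASN2 was higher by 0.98 (0.25 and -0.16 after that centring, neither called). Of 15 glycogen, trehalose and sugar transport genes 4 rose, a share of 26.7% against 25.7% over all genes, and 1 fell (6.67%, with 26.6%). After that centring none rose and 13 fell (86.7%, with 75.6% over all genes). The trehalase gene Treh was higher by 0.70 (-0.44 after that centring), and the sugar transporter gene sut1 fell by 1.42.

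Genes expressed in fat body of the head in a sex-biased way moved as a group, with 7 of 8 higher (87.5%, with 25.7% over all genes, median 1.70). After centring on muscle and photoreceptor genes 4 were still higher (50%, with 4.02% over all genes) and 2 lower (25%, with 75.6%). fit, a female-specific satiety peptide, stood at 8.53, 9.24 and 9.05 in CAKO and at 12.54, 13.23 and 12 in CAKO_ovoD (3.65, SE 0.31, adjusted p = 4.64e-06), 12.5-fold. Obp99b, which is male-biased, went from 9.34, 9.60 and 8.27 to 11.37, 11.83 and 11.71 (2.57, SE 0.48). The genes dsx, the switch at the end of the sex determination cascade, and sxe2, a lipase-like gene, rose by 1.97 and 1.93. Female-biased and male-biased members were thus higher together.

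Digestive enzymes were higher almost throughout. Of 26 Jonah and trypsin-type proteases of the gut 23 were higher (88.5%, with 25.7% over all genes) and none lower (median 1.45). After centring on muscle and photoreceptor genes 10 were higher (38.5%, with 4.02% over all genes) and 2 lower (7.69%, with 75.6%). Jon25Bii, at 3.3, 3.57 and 4.98 in CAKO, was 7.79, 9.36 and 6.08 in CAKO_ovoD (3.79, SE 0.83, adjusted p = 0.00272), and Jon25Bi, at 4.19, 5.58 and 5.59, was 8.88, 9.11 and 7.31 (3.32, SE 0.57, adjusted p = 5.76e-04). For both, the third CAKO_ovoD array was the lowest but stayed above every CAKO array. Jon66Cii rose by 3.26 and Ser8 by 2.49. Of 12 glucosidases and amylases 9 rose (75%, median 0.74), led by the maltase genes Mal-A4 (2.11, SE 0.26) and Mal-A3 (1.92, SE 0.20). After that centring 2 were higher (16.7%) and 3 lower (25%). The spermathecal secretory proteases Send1 and CG17239, which the female tract makes around sperm storage, went from 7.57, 7.44 and 8.09 to 10.21, 10.29 and 9.97 (2.46, SE 0.19) and from 5.31, 6.02 and 6.72 to 8.76, 9.23 and 8.29 (2.74, SE 0.34). In their list of 7, 4 rose (57.1%), and after that centring 2 were higher (28.6%) and 1 lower (14.3%).

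Immune genes were uneven between arrays. Of 7 antimicrobial peptide genes 2 were called, both higher, a share of 28.6% close to the 25.7% over all genes. Mtk, a peptide against fungi and bacteria, stood at 9.03, 9.0 and 8.58 in CAKO and at 13.12, 11.96 and 11.69 in CAKO_ovoD (3.38, SE 1.17, adjusted p = 0.0311), and 1 of the 3 Wildtype arrays reached 12.75. Its call was lost without any 1 CAKO array and without CAKO_ovoD replicate 1 or 2 (2.95 to 3.53, adjusted p = 0.0586 to 0.098). BomS2, a short secreted peptide of the Toll response, was higher by 0.65, was not called without CAKO replicate 2 (0.58), and changed sign after centring on muscle and photoreceptor genes (-0.49). Among 17 genes of peptidoglycan recognition and immune signalling, 6 rose (35.3%, with 25.7% over all genes) and 3 fell (17.6%, with 26.6%). After that centring 2 were higher (11.8%, with 4.02% over all genes) and 11 lower (64.7%, with 75.6%). The recognition protein gene PGRP-SB1 went from 9.02, 8.88 and 8.72 to 12.19, 11.77 and 11.45 (2.93, SE 0.57) and PGRP-LB, whose product cuts peptidoglycan, from between 6.98 and 7.47 to between 8.95 and 9.14 (1.78, SE 0.12). Hemocyte and melanization markers were higher in 8 of 13 (61.5%, with 25.7% over all genes, median 1.44). After that centring 6 were higher (46.2%, with 4.02%) and 5 lower (38.5%, with 75.6%). NimC1, a phagocytosis receptor of blood cells, stood at 5.57, 5.54 and 5.68 in CAKO and at 8.07, 7.81 and 8.16 in CAKO_ovoD (2.42, SE 0.11, adjusted p = 6.26e-08), and the prophenoloxidase gene PPO1 of crystal cells rose by 2.43.

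Among 3 detoxification families more genes were higher than lower on the deposited scale. After centring on muscle and photoreceptor genes more were lower than higher. Over all genes 25.7% were higher and 26.6% lower on the deposited scale, and 4.02% and 75.6% after that centring. After it 21.8% of the cytochrome P450 list were higher and 29.5% lower. The shares were 21.2% and 54.5% for glutathione S-transferases and 17.6% and 29.4% for UDP-glycosyltransferases. Of 78 genes of the cytochrome P450 list 54 were higher and 3 lower (median 1.22), with 17 higher and 23 lower after that centring. The list also holds Cyp1 and Cyp40, which encode cyclophilins, so its counts are not of P450 genes alone. Cyp6a18 rose by 2.64, Cyp6w1 by 2.52, Cyp4e3 by 2.42 and Cyp4d1 by 2.33. Against them stood Cyp6a19, at 11.79, 11.94 and 11.82 in CAKO and at 4.92, 5.17 and 5.10 in CAKO_ovoD (-6.78, SE 0.54, adjusted p = 2.75e-06), a fall of the size of the maternal RNAs. Of 33 glutathione S-transferase genes 17 were higher and 3 lower (7 and 18 after that centring), with GstD8 (2.96, SE 0.36) and GstD10 (2.44, SE 0.16) the largest called rises, whereas GstO1 fell by 1.71. Of 34 UDP-glycosyltransferase genes 23 were higher and 1 lower (6 and 10 after that centring), with Ugt37A3 (2.74), Ugt305A1 (2.45) and the lower gene Ugt316A1 (-1.84). Of 13 antioxidant enzymes 3 were higher, 23.1% where 25.7% of all genes were, and 1 lower (1 and 9 after that centring). The peroxiredoxin gene Prx6c rose by 2.22, the catalase gene Cat was higher by 0.86 (-0.28 after that centring), and Sod3, an extracellular superoxide dismutase, fell by 1.91. These pairs of values show that each family held members that moved against the rest.

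Odorant-binding protein genes, small carriers of hydrophobic ligands, were higher in 22 of 36 (61.1%, with 25.7% over all genes, median 0.92) and lower in 1. After centring on muscle and photoreceptor genes 3 were higher (8.33%, with 4.02% over all genes) and 13 lower (36.1%, with 75.6%). Obp99a went from 10.70, 11.02 and 10.51 to 14.25, 14.00 and 13.48 (3.17, SE 0.19, adjusted p = 5.19e-07) and Obp56a from between 9.31 and 9.67 to between 11.20 and 11.35 (1.78, SE 0.15). The 1 fall was Obp19c, uneven in CAKO at 3.38, 5.98 and 6.34 and at 2.90 to 3.21 in CAKO_ovoD (-2.16, SE 0.69, adjusted p = 0.0209). This call was lost without CAKO replicate 2 (-1.79), without CAKO replicate 3 (-1.61), without CAKO_ovoD replicate 1 (-2.08), with array weights (-2.17), in the fit of these genotypes alone and in the methods' t-test. Cuticle protein genes, most of them near the floor, were higher in 15 of 70 (21.4%, with 25.7% over all genes) and lower in 1. After centring on muscle and photoreceptor genes 2 were higher (2.86%, with 4.02% over all genes) and 55 lower (78.6%, with 75.6%). No gene of the Osiris family, likewise of cuticle-forming tissue, was called among 12 (12 lower after that centring, where 75.6% of all genes were).

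Markers of somatic tissues moved alongside all of the rises above. Of 19 muscle genes 14 were higher and none lower (median 0.64), of 16 photoreceptor genes 13 (median 1.28), of 14 neuronal genes 10 (median 1.07) and of 23 neuropeptide genes 19 (median 1.32), where 25.7% of all genes were higher. After centring on muscle and photoreceptor genes 0 neuronal genes were higher and 6 lower, and 1 neuropeptide gene was higher and 3 lower. That centring sets the mean of the muscle and photoreceptor lists by construction, so it gives no result for them. None of the muscle and neuronal markers tested was near the floor in either genotype, and the list medians went from 11.58 to 11.67 up to 12.08 to 12.45 for muscle and from 7.33 to 7.39 up to 8.57 to 8.83 for neurons. The giant sarcomere protein gene sls stood at 10.01, 9.93 and 9.89 in CAKO and at 11.18, 11.07 and 11.07 in CAKO_ovoD (1.16, SE 0.10, adjusted p = 4.83e-06), and Act88F, the flight muscle actin, at 9.89, 8.64 and 8.64 and at 10.06, 10.31 and 11.11 (1.44, SE 0.38). The Act88F call was lost in the fit of these genotypes alone and in the methods' t-test. The synaptic genes nSyb and cac rose by 1.24 and 1.57 and the neuropeptide genes sNPF and NPF by 1.66 and 1.52 (0.10, 0.43, 0.52 and 0.38 after that centring, not called for these probe sets). Malpighian tubule markers rose in 8 of 10 (80%) and fell in 1, and after that centring 0 rose and 4 fell (40%). The water channel gene Drip was higher by 1.48 (0.34 after that centring, not called), whereas its relative Prip fell by 1.00. The part of a changed share of somatic RNA in the rises was not tested. The rise of ninaD, a carotenoid uptake receptor used in vision, was larger than that of its list, from 7.65, 7.35 and 8.0 to 10.50, 9.70 and 10.35 (2.52, SE 0.27).

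The same contrast in females with corpora allata, ovoD mutant against Wildtype, shares no array with the one above and called 2513 genes higher (25.2%) and 2851 lower (28.6%). Of the genes higher in CAKO_ovoD, 2268 were higher there too, 88.6% of these and 90.3% of those higher in the ovoD mutant, and for lower genes the number was 2540, 95.9% and 89.1%. Opposite calls were made for 2 genes, Cyp6a17 and Ptp4E, both named after their values were seen. Cyp6a17 stood at 9.78, 9.66 and 9.45 in CAKO and at 10.60, 10.49 and 10.66 in CAKO_ovoD, but at 8.97 to 9.20 in Wildtype and at 6.94 to 8.37 in the ovoD mutant. The call of Ptp4E without corpora allata rests on a probe set that is not the brightest of that gene. List medians of both contrasts lay close for meiosis (-2.15 without and -1.92 with corpora allata), DNA replication (-3.69 and -3.57) and maternal RNAs (-5.25 and -5.23). For chorion genes they were -7.54 and -10.10, but the difference was called for none of the 7 genes (adjusted p of the interaction from 0.0955 for Cp16 to 0.398 for Cp38). For other eggshell genes they were -3.44 and -6.51, and the difference was called for 3 of 15. Vm32E fell less and tsl rose less without corpora allata, and pip was near the floor in CAKO. Since Vm32E read close to the floor in both sterile genotypes, its difference mainly restates its levels in Wildtype and CAKO. All arrays of a sterile genotype lay within 0.2 of the floor for 1 chorion gene and for 5 (ovoD mutant) and 6 (CAKO_ovoD) eggshell genes.

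**Figure D5:**
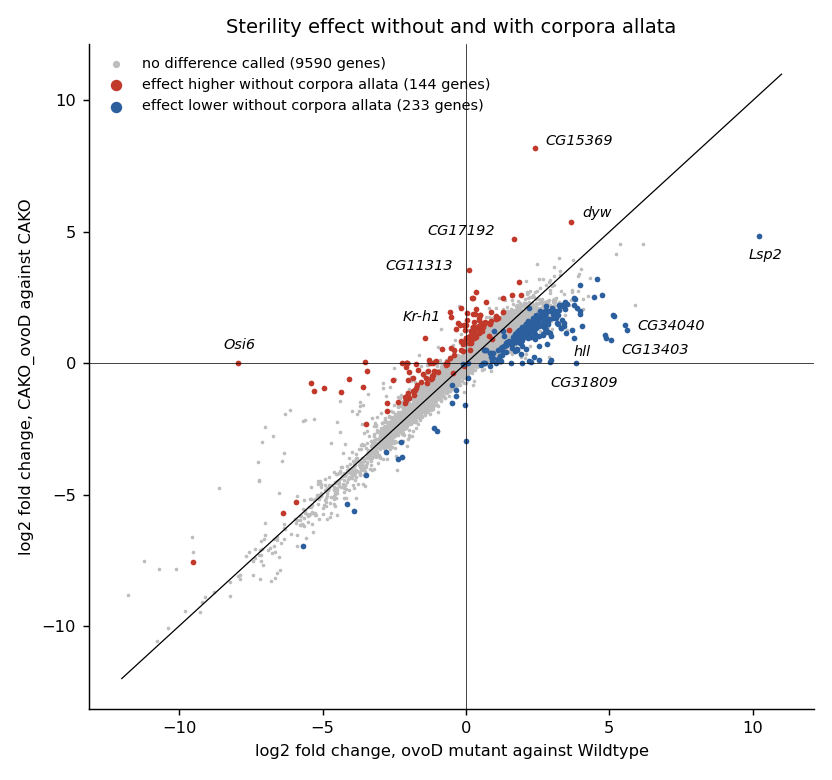
Log2 fold change of CAKO_ovoD against CAKO (vertical axis) against that of ovoD mutant against Wildtype (horizontal axis) for each tested gene on the deposited scale, with the line of equal effects. The 144 genes with a higher and 233 with a lower effect without corpora allata are coloured (101 and 492 after centring on muscle and photoreceptor genes), and most coloured points below the line lie at positive values on both axes.

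The difference of the contrasts, tested as an interaction term, was called for 144 genes higher (1.44%) and 233 lower (2.34%) without corpora allata, and for 77 and 229 of them under all 3 scalings. Without CAKO replicate 1 the lower ones numbered 153. Of the 233, 214 were higher in the ovoD mutant than in Wildtype and 180 were higher in both contrasts. Lsp2 rose in both and differed most in this direction, from 4.34, 4.05 and 3.14 in Wildtype to 14.09, 14.16 and 13.95 in the ovoD mutant (10.23), against 4.86 without corpora allata (interaction -5.37, SE 0.43, adjusted p = 4.08e-04). Its level was higher in CAKO than in Wildtype and lower in CAKO_ovoD than in the ovoD mutant, so both ends of the range were nearer to each other. CG34040 was likewise already high in CAKO, at 11.57, 10.89 and 11.40 where Wildtype read 4.07 to 5.36 (1.28 without and 5.61 with corpora allata, interaction -4.33, adjusted p = 0.00159, and 0.14 without after centring on muscle and photoreceptor genes).

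Another 3 genes were high in the ovoD mutant and dim in the other genotypes. CG13403 read 7.25 to 7.60 in the ovoD mutant and 3.34, 3.42 and 3.38 in CAKO_ovoD (0.90 without and 5.05 with corpora allata, interaction -4.15, adjusted p = 1.15e-05, and -0.24 without after centring on muscle and photoreceptor genes). Cyp4d21, a sex-biased cytochrome P450 gene of the head fat body, read 7.63 to 8.14 and 3.31 to 4.35 (at least 2.78-fold higher than in CAKO, where it was near the floor, interaction -4.06, adjusted p = 4.34e-04). Its call without corpora allata was not made after centring on muscle and photoreceptor genes (0.33, adjusted p = 0.152). CG31809 was at 6.14 to 6.23 in the ovoD mutant alone and at 2.23 to 2.42 on all other arrays (interaction -3.82, adjusted p = 1.75e-07). hll, named above, differed too (interaction -3.90, adjusted p = 0.00209).

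In the other direction, Osi6 was at the floor of 2.13 in both genotypes without corpora allata and in the ovoD mutant, and at 10.09, 9.27 and 10.91 in Wildtype alone (interaction 7.95, adjusted p = 4.33e-05). A gene at the floor in CAKO has no room to fall, so this value restates the Wildtype level above the floor and does not compare measured falls. CG40298 had the same pattern and the same limit, at 5.87 to 6.05 in Wildtype and 2.15 to 2.47 elsewhere (interaction 3.59, adjusted p = 1.75e-07). Osi15, phu and TwdlN, a cuticle protein gene, were also high in Wildtype and were not called between CAKO_ovoD and CAKO (-0.77, -1.07 and -0.93), although phu was called lower with a replicate block (adjusted p = 0.0215). Osi15 and TwdlN were near the floor in both sterile genotypes, so their falls are bounds. Their interaction calls were not stable: that of Osi15 (interaction 4.64, adjusted p = 0.0163) was lost with array weights (4.58), that of TwdlN (4.02, adjusted p = 0.0328) without most single arrays, among them CAKO replicates 2 and 3 (3.54 and 3.64), and that of phu (4.22, adjusted p = 0.050) without most single arrays, among them CAKO replicates 1 and 2 (3.54 and 4.31). CG15369 differed in its sterile level instead, with 6.63, 3.90 and 3.49 in the ovoD mutant and 10.32 to 11.36 in CAKO_ovoD (interaction 5.78, adjusted p = 0.0135). Kr-h1 lay at 8.94 to 10 in Wildtype and 9.11 to 9.37 in the ovoD mutant, a difference of -0.21 that was not called, and was low only in CAKO (interaction 1.67, SE 0.32, adjusted p = 0.0209).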

How the data were processed

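Whole-female RNA was hybridized to 12 Affymetrix Drosophila 2.0 arrays, 3 per genotype. The authors quantile normalized the arrays and ran GC-RMA, which models background from probe sequence (GCRMA in the submitters' notes; its version is not given in the sources used here). The deposited log2 values are 1 per probe set and array. These log2 values entered the fits unchanged, and all columns were used. The number of arrays limits the precision. The array holds 18952 probe sets. Annotation gives a single gene for 13646 of them, more than one for 402 and no gene for 4904, and 13543 of the single genes were found in the RefSeq table by identifier. Mean values in the first quartile in each of the 4 genotypes removed 5081 probe sets, and 13871 stayed.

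R 4.3.3 with limma 3.58.1 (lmFit, contrasts.fit, eBayes with a trend) fitted the genotypes on all 12 arrays, leaving 8 residual degrees of freedom. P-values are two-sided, with Benjamini-Hochberg adjustment within a contrast over the probe sets that stayed. Calling a gene took 1 or more called probe sets, all in the same direction, and its printed value is that of the brightest probe set by mean over all arrays. A group whose arrays all read within 0.2 of the floor gives only a bound, written as at least N-fold. The replicates are described as biological, nothing says that they came from separate cages, and the p-values then measure only the spread between these samples. With 3 against 3 arrays the smallest exact permutation p is 0.1. The fit was tested on simulated data.

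Named genes follow a rule: the 12 largest rises and falls among called genes without overlap between arrays, up to 4 called members of each list in each direction (2 where none is called), the 6 largest interactions each way, and the genotype checks ovo and jhamt, with the exceptions stated in the text. Of these the text takes 140, and the others are not reported here. The comparison, the 44 gene lists and the rule were chosen with earlier results of these data known, and list symbols without a match were dropped. The alternatives were other fold thresholds (none, 2-fold), the methods' t-test, a fit of CAKO and CAKO_ovoD alone, a stricter filter or none, a single probe set per gene, both centrings, array weights, no trend, a replicate block, and each array left out in turn.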

Additional observations from a re-analysis of the deposited data

Results flagged for a closer look

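For 30 of the named genes the effect of sterility differed between females without and with corpora allata by the test of the difference itself (the interaction term in limma, Benjamini-Hochberg adjusted). Each value below is the log2 effect without corpora allata minus that with them.

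Among genes that both contrasts called higher, the effect was smaller without corpora allata for the fat body and lipid genes Lsp2 (-5.37), CG8093 (-1.99), Tsf1 (-1.13), mag (-1.32) and the hormone gene Akh (-1.12, with 2.32 without and 3.44 with corpora allata). The same held for GstD10 (-1.35), Prx6c (-1.54), Jhbp11 (-1.01), ninaD (-1.96), tsl (-0.59), hll (-3.90), CG13403 (-4.15), CG34040 (-4.33) and Cyp4d21 (-4.06). CG31809 (-3.82) was called with corpora allata and not without them.

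The effect was larger without corpora allata for CG15369 (5.78), CG17192 (3.07, with 4.73 without and 1.66 with corpora allata) and dyw (1.68). CG11313 (3.46, adjusted p = 0.0461) and Kr-h1 (1.67) were called higher without corpora allata and not called with them.

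Among genes that fell in both contrasts, zpg fell further without corpora allata (-1.23), whereas Vm32E (1.94), c(2)M (0.69), c(3)G (0.66) and Cbs (0.60) fell less. Vm32E read close to the floor in both sterile genotypes, so its value mainly restates its levels in Wildtype and CAKO. Osi6 (7.95), Osi15 (4.64), TwdlN (4.02), phu (4.22) and CG40298 (3.59) were lower in the ovoD mutant than in Wildtype and were not called between CAKO_ovoD and CAKO. Of these, Osi6 and CG40298 were near the floor in CAKO and could not fall there, and Osi15 and TwdlN were near it in both sterile genotypes, so their values depend on the floor and are not differences of measured changes. Both genotypes without ovoD1 read near the floor for CG11313 and dyw, as did CAKO for Cyp4d21, so that the rises of these genes are bounds.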

How the results depend on the processing

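The count of genes higher in CAKO_ovoD became 401 and that of genes lower 7535 after centring on muscle and photoreceptor genes. The counts stayed within 1.5 times the reported ones under every other alternative run, from 2486 to 2546 higher and from 2610 to 2669 lower when single arrays were left out. The methods' t-test gave 2514 and 2636 unadjusted and 2475 and 2626 after Benjamini-Hochberg adjustment. The interaction counts were 279 higher and 364 lower with no fold threshold, 70 and 119 with a 2-fold threshold, and 492 lower after centring on muscle and photoreceptor genes. Leaving out single arrays gave 98 to 156 higher and 153 to 236 lower, with 153 without CAKO replicate 1. The log2 fold changes of 13 named genes changed sign after centring on muscle and photoreceptor genes: tsl -0.02, Yp2 -0.18, Yp3 -0.29, Rbfox1 -0.40, hll -0.17, vvl -0.10, AkhR -0.11, FASN2 -0.16, BomS2 -0.49, Cat -0.28, Treh -0.44, CG40298 -1.08 and CG13403 -0.24. A further 16 named genes kept their sign and lost their call there, and Rpn11, Rpn5, Sam-S and usp lost theirs after median centring. Changes of sign were counted only for genes called in the reported fit or in the alternative. By that count no named gene changed sign under any of the other alternatives run. Outside the centrings 23 values lost their call in 2098 combinations of gene and alternative. By construction a centring adds the same amount to every gene of an array.

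Replicate numbers are shared across genotypes, but same-numbered CAKO and CAKO_ovoD arrays did not deviate together (correlations 0.02, 0.02 and 0.01), so the numbers were not taken to pair arrays. With a replicate block the counts were 2548 higher and 2649 lower, and 119 and 202 for the interaction. Among the named genes and interactions the block changed 1 call, that of phu, lower at -1.07 (adjusted p = 0.0215). Signal near the floor limits the dim genes: 17 genes called higher were near it in all CAKO arrays and 34 called lower in all CAKO_ovoD arrays.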

Other observations

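For 35 genes probe sets were called in opposite directions, and they count as neither higher nor lower above. The genes named here were chosen after their values were seen. For hts, an adducin-like gene whose germ line form builds ring canals and the fusome, 1 of 5 probe sets stood at 9.34, 9.29 and 9.43 in CAKO and at 4.11, 4.30 and 4.42 in CAKO_ovoD (-5.07), and another at 9.42, 9.59 and 9.54 and at 10.50, 10.34 and 10.63 (0.97). For lola, a transcription factor gene with many isoforms and 15 probe sets, the extremes were -5.81 and 1.14. Mical, which encodes an oxidoreductase of actin filaments, had 1 probe set that went from 8.92, 8.86 and 9.08 to 2.59 on all CAKO_ovoD arrays (-6.36) and another that was higher (0.77). The translational repressor gene pum (-2.45 and 0.60) and the piRNA pathway gene tapas (-4.95 and 0.76) had the same split. The changes of these higher probe sets were 1.14 or less, and centring on muscle and photoreceptor genes shifts every change by -1.14.

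By chromosome arm, the 65 tested genes of chromosome 4 held 43.1% called higher and 18.5% lower, and the X chromosome 22.2% and 31.4%. The other arms ran from 24.4% to 28.0% higher and from 25.3% to 26.3% lower. These shares are a description over genes that share the same arrays.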
